A study of Mus musculus with 13 samples.

Results

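Zfp genes are the mouse genes of zinc finger proteins whose symbols read Zfp followed by a number. Here 188 of them form the set, chosen by their measured level: a mean value of at least 10 over the 3 WT libraries of mouse embryonic stem (ES) cells. The replicate files listed 343 Zfp genes with digits-only symbols among 26797 genes. Of these, 151 lay below the threshold and 4 were left out by name (Zfp42, Zfp57, Zfp352 and Zfp809), genes known as a pluripotency marker, an imprint regulator, a 2-cell marker and a repressor of retroviruses. All 188 were placed on the GRCm38 (mm10) genome, 186 as protein-coding genes and 2 (Zfp264 and Zfp640) as transcribed pseudogenes, and all 188 were in the count table of the single libraries. The rule used the WT level, so the WT levels themselves are a description. Chromosome 7 held 48 of the members and chromosome 17 held 22.

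The study asked whether removal of O-GlcNAc, a sugar placed on nuclear proteins, reactivates methylated retrotransposons. WT cells were of the AinV15 line, which carries a doxycycline-inducible locus, and Dnmt1-/- cells were of the D1-null strain (C allele), which lacks the enzyme that maintains DNA methylation; both had 3 untreated replicate libraries. Because the 2 genotypes are 2 cell lines, an effect of Dnmt1 and a difference between lines cannot be told apart. A second set held 1 library each of WT, Dnmt1-/-, and AinV15 derivatives with an induced dCas9-OGA or its D242A mutant (1 µg/mL doxycycline for 48 h), each with 4 sgRNAs against IAP retrotransposons; OGA is the enzyme that removes O-GlcNAc, and D242A impairs its activity. The labels describe growth on gelatin with serum and leukemia inhibitory factor for all of these cells, and name no feeder layer. The WT and Dnmt1-/- columns of the second set carry only the name of the genotype and match no single sample of the series by label, so that which culture they came from is not known here, and each is called 1 library only because it is 1 column of raw counts. No source used here says whether the replicates were separate cultures, so p-values measure the spread between these libraries, which may be technical.

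Most Zfp proteins hold C2H2 zinc fingers, short loops in which a pair of cysteines and a pair of histidines grip a zinc ion, and tandem arrays of fingers read DNA sequence. Many of them also carry a KRAB domain, which recruits the corepressor TRIM28 (KAP1) and with it the histone methyltransferase SETDB1 and heterochromatin proteins. KRAB zinc finger proteins are known in ES cells for the silencing of retrotransposons and the protection of imprints, and their genes lie in clusters that arose by repeated duplication. Zfp proteins without KRAB have varied roles, from pluripotency to RNA decay and ribosome quality control.

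Duplication left stretches that several members share letter by letter. The clearest case was a group of KRAB genes at the distal end of chromosome 4, where 7 members hold the same 50 bases in their coding exons. These bases occurred at 42 further places on the GRCm38 chromosomes outside Zfp990, 38 of them on chromosome 4. The segments are shown with 25 bases on each side, on the coding strand, because they show how little separates the genes whose reads are counted below. Capitals mark the 73 of 100 positions that are identical in all 7 genes.

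Zfp990, chr4:145537440-145537539, plus strand: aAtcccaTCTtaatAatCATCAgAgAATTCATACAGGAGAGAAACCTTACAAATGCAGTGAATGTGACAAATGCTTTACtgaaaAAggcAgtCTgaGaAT

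Zfp986, chr4:145899526-145899625, plus strand: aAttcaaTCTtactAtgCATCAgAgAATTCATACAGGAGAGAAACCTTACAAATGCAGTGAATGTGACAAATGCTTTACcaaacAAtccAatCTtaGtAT

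Zfp987, chr4:146124754-146124853, plus strand: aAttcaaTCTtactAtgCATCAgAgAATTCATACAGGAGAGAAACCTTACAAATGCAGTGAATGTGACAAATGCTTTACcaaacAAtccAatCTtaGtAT

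Zfp982, chr4:147512528-147512627, plus strand: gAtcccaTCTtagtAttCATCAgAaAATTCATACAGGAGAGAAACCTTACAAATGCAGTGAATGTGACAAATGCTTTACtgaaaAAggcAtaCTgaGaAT

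Zfp985, chr4:147583761-147583860, plus strand: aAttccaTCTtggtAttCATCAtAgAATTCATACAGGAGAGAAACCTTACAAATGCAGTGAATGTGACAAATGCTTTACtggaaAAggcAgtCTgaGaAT

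Zfp979, chr4:147613094-147613193, minus strand: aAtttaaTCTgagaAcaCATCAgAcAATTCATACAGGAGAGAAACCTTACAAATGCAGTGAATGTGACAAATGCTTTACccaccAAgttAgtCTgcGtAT

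Zfp534, chr4:147674601-147674700, minus strand: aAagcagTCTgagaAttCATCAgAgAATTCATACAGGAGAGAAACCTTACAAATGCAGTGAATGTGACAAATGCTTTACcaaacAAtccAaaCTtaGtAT

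Zfp986 and Zfp987 were identical over all 100 bases. A read that lies wholly within the shared bases cannot be assigned to 1 gene.

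Promoters of the members differed in their content of CG, the dinucleotide that Dnmt1 keeps methylated. RefSeq promoters (GRCm38.p6) were found for 156 of the 188 members. In the 250 bases before the start of transcription, CG occurred at least once in all 156 and in 92.6% of all 20595 gene promoters of the same length. The median count was 8 for 83 members with a KRAB motif, 16.5 for 72 members without one, and 8 over all promoters. The 250 bases are printed for 3 members that were lower in Dnmt1-/- cells (Zfp503, Zfp808 and Zfp985) and 2 that were higher (Zfp275 and Zfp346), with each CG in capitals; CG reads the same on both strands.

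Zfp503, chr14:21989602-21989851, minus strand: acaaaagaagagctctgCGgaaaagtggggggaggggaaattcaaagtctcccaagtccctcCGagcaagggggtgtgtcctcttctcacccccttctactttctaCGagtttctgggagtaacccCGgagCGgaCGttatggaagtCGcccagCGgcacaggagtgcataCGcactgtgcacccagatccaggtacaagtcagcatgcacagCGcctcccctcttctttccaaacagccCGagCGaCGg

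Zfp808, chr13:62129640-62129889, plus strand: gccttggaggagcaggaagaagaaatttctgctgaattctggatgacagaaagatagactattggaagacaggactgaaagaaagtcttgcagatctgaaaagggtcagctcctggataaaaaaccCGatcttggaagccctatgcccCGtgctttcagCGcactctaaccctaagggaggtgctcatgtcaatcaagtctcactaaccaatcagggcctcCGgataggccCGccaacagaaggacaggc

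Zfp985, chr4:147553027-147553276, plus strand: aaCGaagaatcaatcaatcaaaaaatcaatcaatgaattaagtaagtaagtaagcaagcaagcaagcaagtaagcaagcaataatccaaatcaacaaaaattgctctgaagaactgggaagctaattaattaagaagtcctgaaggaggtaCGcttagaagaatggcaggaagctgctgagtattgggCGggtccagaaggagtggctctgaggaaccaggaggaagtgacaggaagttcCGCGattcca

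Zfp275, chrX:73342370-73342619, plus strand: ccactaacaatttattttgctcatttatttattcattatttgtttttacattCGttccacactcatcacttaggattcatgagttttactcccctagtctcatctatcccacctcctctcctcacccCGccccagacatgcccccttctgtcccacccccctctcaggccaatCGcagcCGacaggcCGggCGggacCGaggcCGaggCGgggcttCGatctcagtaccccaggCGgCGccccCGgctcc

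Zfp346, chr13:55105059-55105308, plus strand: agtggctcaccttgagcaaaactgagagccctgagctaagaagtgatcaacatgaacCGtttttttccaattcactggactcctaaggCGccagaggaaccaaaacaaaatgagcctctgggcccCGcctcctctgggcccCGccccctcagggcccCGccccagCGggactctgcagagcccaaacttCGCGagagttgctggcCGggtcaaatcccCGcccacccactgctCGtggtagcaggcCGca

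The printed stretch of Zfp503 and that of Zfp275 each held 13 CG, and that of Zfp346 held 12. Those of Zfp808 and Zfp985 held 5 each. The median over 79 members called lower was 9, over 30 members called higher 12, and over 47 members not called 12; no test was made of these counts, and DNA methylation was not analysed here.

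The replicate libraries held between 26846275 and 37112247 reads on genes, and the single libraries between 18693531 and 25097983. Dnmt1 itself stood at 308, 352 and 347 in the WT libraries and at 73.6, 75.4 and 77.6 in the Dnmt1-/- libraries, and at 460 cpm in the single WT and 61.9 cpm in the single Dnmt1-/- library. The ES cell markers Pou5f1, Nanog, Esrrb, Klf4 and Zfp42 summed to between 3011 and 3107 in WT and between 2792 and 2877 in Dnmt1-/- replicates. Esrrb, Pou5f1 and Klf4 were called lower, at log2 fold changes of -0.45, -0.17 and -0.13, and the other 2 were not called. Sox2, a further marker of the list, was not found among the genes. All 5 fibroblast markers (Col1a1, Col1a2, Col3a1, Thy1 and Lum) were lower in Dnmt1-/- cells, with sums of 998 to 1450.01 in WT and 242.2 to 269 in Dnmt1-/-, although no feeder layer is described. Of 7 markers of 2-cell-like cells, 6 were lower in Dnmt1-/- cells, with sums of 406 to 433 against 166 to 193. Of 5 primitive endoderm markers, 4 were higher, with sums of 117 to 119 in WT and 169.95 to 179 in Dnmt1-/-. The 3 neural and mesoderm markers found summed to under 5 in every replicate library. No marker was at 0 in all libraries of a replicate group. In the single libraries the fibroblast markers summed to between 29.4 and 60.1 cpm, and the 2-cell markers to 27.6 cpm in WT and to between 0.363 and 1.37 cpm in the other libraries. The primitive endoderm markers summed to 46.6 cpm in single WT and 15.9 in single Dnmt1-/- cells, opposite to the replicates, and the neural and mesoderm markers to 10.9 and 14.9 cpm. The part of these cell types in the results on Zfp genes was not tested, and in bulk RNA fewer cells of a type and less RNA per cell cannot be told apart.

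In Dnmt1-/- cells more members were lower than higher. The rule for members used no Dnmt1-/- values. It used the WT values, which form part of the difference from Dnmt1-/-, and was set with earlier results of these data known. With limma on log2(value + 0.5) and Benjamini-Hochberg adjustment over all 17297 genes tested, 93 of the 188 members were lower in Dnmt1-/- cells, 40 were higher and 55 did not pass the test at 0.05. Over all genes tested, 71.2% were called in either direction, 35.4% were called lower and 35.8% higher; among the 9818 genes with a mean WT value of at least 10, 75.6% were called, 32.6% were called lower and 43.0% higher. The median log2 fold change was -0.13 over the members, 0.01 over all genes tested and 0.07 over the genes with the same minimum level. Changes were mostly small: the quartiles of the members lay at -0.42 and 0.12. At least 2-fold lower were 14 members, where the background was 9.41% of all genes tested and 6.93% of genes at the same minimum level, and none was at least 2-fold higher, where the shares were 3.67% and 1.99%. A minimum set on the WT level favours genes that fell and works against genes that rose. Of the tested Zfp genes outside the set, 1 was at least 2-fold higher: Zfp658, a KRAB gene, at 1.38, 1.09 and 1.11 in WT and 5.12, 5.52 and 4.38 in Dnmt1-/- cells (log2 fold change 1.70). The count of 2-fold rises was also 0 with edgeR and with DESeq2 on the recovered reads, while 40 members passed the limma test as higher at any fold. The 3 Dnmt1-/- libraries lay wholly below the 3 WT libraries for 89 members and wholly above for 43, where the shares over all genes tested were 36.2% and 37.1%, and 33.1% and 44.2% over genes at the same minimum level.

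**Figure D1:**
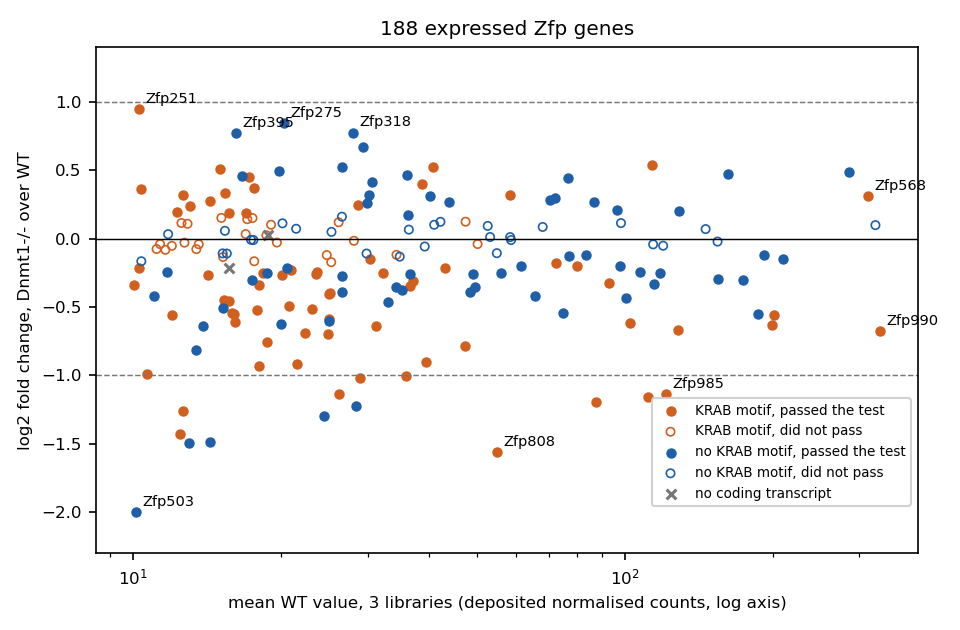
Each point is 1 of the 188 Zfp genes, with the mean WT value of 3 libraries on a log axis and the log2 fold change of Dnmt1-/- over WT on the vertical axis; orange marks a KRAB motif, blue none and grey crosses no coding transcript, filled points passed the limma test at 0.05, and dashed lines mark 2-fold. No point lies above the upper line, and Zfp503 lies lowest, at -2.00.

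Because the threshold used the WT libraries, it admits genes that are high in WT. With the threshold set on the mean of all 6 libraries, 182 Zfp genes qualified, of which 83 were lower and 45 higher, and 9 in place of 14 were at least 2-fold lower; over all genes at that threshold 29.8% were lower, 45.6% higher and 5.51% at least 2-fold lower. With the threshold set on the Dnmt1-/- libraries, 179 qualified, of which 78 were lower and 47 higher, with a median log2 fold change of -0.08, and 8 were at least 2-fold lower, where the shares over all genes were 26.7%, 48.2% and 3.25%. With a minimum WT value of 20, 118 qualified, of which 64 were lower, 25 higher and 9 at least 2-fold lower, beside 31.5%, 44.4% and 6.01% of all genes at that level. Among the 134 other Zfp genes that could be tested, 37 were lower and 43 higher, with a median of -0.04, beside 39.2% and 26.4% of all genes tested with a WT mean under 10. The 134 include Zfp42, Zfp57 and Zfp809, left out by name, with WT means of 800, 268 and 99.2, which that background does not cover. The members just above the threshold were Zfp433, Zfp503 and Zfp931, with WT means of 10.04, 10.1 and 10.3. Just below it lay Zfp446, Zfp942 and Zfp605, with 9.92, 9.88 and 9.71. The 188 members together took between 0.938% and 1.01% of the summed values of the WT libraries and between 0.838% and 0.855% in the Dnmt1-/- libraries. Those with a KRAB motif took 0.361% to 0.412% in WT and 0.294% to 0.311% in Dnmt1-/-, and those without it took 0.572% to 0.591% and 0.533% to 0.547%. Neither pair of shares overlapped. The sums themselves overlapped for members without the motif, at 5489 to 5703 in WT and 5500.3 to 5634 in Dnmt1-/-, since the library sums were larger in Dnmt1-/- cells, but not for those with it, at 3479 to 3977 and 3025 to 3162.

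Of the 10 largest falls, 5 (Zfp503, Zfp651, Zfp697, Zfp619 and Zfp28) were in the set only through their WT level, since their mean over all 6 libraries was under 10, and Zfp827 had a Dnmt1-/- mean under 10. With the threshold on all 6 libraries the largest fall was that of Zfp808. With the threshold on WT it was that of Zfp503, at chr14:21983959-21989601, a member of the NET family of repressors in neural and limb development. It stood at 11.004, 10.3 and 9.16 in the WT libraries and at 2.51, 2.04 and 1.95 in the Dnmt1-/- libraries (log2 fold change -2.00 ± 0.11 (SE), adjusted p = 9.78e-14). Its coding sequence held no match to the C2H2 motif searched. Zfp808, a KRAB gene on chromosome 13, fell from 57.3, 48.3 and 59.2 to 17.8, 20.2 and 16.9 (-1.56 ± 0.08, adjusted p = 4.31e-15). Of its exon windows of 50 bases, 42.6% had an exact copy elsewhere in the genome, so part of its count may belong to other loci. Zfp651, on chromosome 9 and without a KRAB motif, had WT values of 13.3, 14.8 and 10.96 and Dnmt1-/- values of 4.35, 4.21 and 4.27 (-1.49 ± 0.10, adjusted p = 4.47e-12). For Zfp697 the values were 14.1, 16.2 and 12.8 against 4.39, 5.39 and 4.61 (-1.49 ± 0.10, adjusted p = 3.20e-12). Both had WT values close to the threshold of the set.

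Zfp619, a KRAB gene of 33 finger motifs, stood at 12.3, 10.9 and 14.2 in WT and 3.66, 4.24 and 5.08 in Dnmt1-/- cells (-1.43 ± 0.11, adjusted p = 4.98e-11). Zfp827, which is known to bring the NuRD complex to telomeres, fell from 22.5, 25.4 and 25.7 to 8.25, 10.03 and 10.9 (-1.30 ± 0.09, adjusted p = 3.24e-12). Values of Zfp28, a KRAB gene, were 12.97, 12.8 and 12.1 and 5.12, 5.06 and 4.79 (-1.26 ± 0.09, adjusted p = 8.32e-12). Zfp422, on chromosome 6, went from 29.4, 26.5 and 29.4 to 12.2, 11.4 and 12.1 (-1.22 ± 0.07, adjusted p = 1.87e-13). Zfp951 and Zfp936, both KRAB genes, had the highest WT level per kilobase of exon among these 10. Zfp951 had 86.5, 81.5 and 94.8 in WT and 39.6, 39.6 and 34.8 in Dnmt1-/- cells (-1.19 ± 0.06, adjusted p = 1.81e-14). Zfp936 had 111, 106 and 118 and 50.3, 50.6 and 48.2 (-1.16 ± 0.05, adjusted p = 1.39e-15). The 4 other members that were at least 2-fold lower were Zfp977, Zfp985, Zfp948 and Zfp74, all with a KRAB motif, at log2 fold changes from -1.14 to -1.01.

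**Figure D2:**
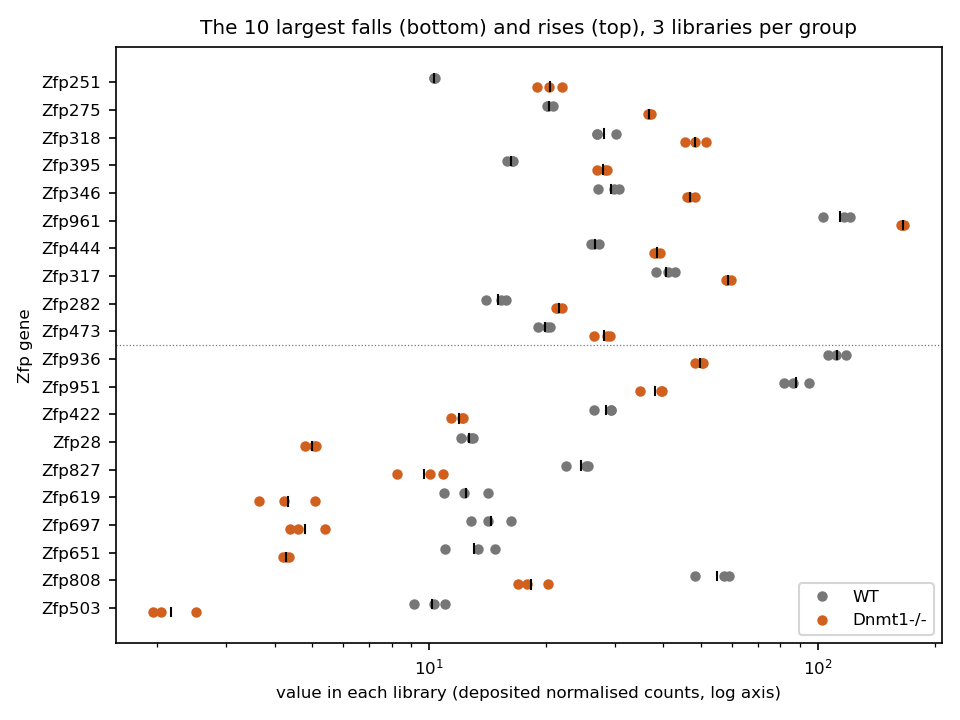
Points are the values of the 3 WT (grey) and 3 Dnmt1-/- (orange) libraries on a log axis, and black ticks are group means, for the 10 members with the largest falls and the 10 with the largest rises. These genes were chosen among those whose groups do not overlap, and 5 of the 10 falls are in the set only through their WT level.

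Rises stayed under 2-fold. Zfp251, a KRAB gene at chr15:76851609-76871435, stood at 10.3, 10.3 and 10.3 in the WT libraries and 20.3, 18.9 and 21.997 in the Dnmt1-/- libraries (log2 fold change 0.95 ± 0.08 (SE), adjusted p = 8.88e-11); without Dnmt1-/- replicate 2 its rise passed 2-fold. Zfp275, on the X chromosome, rose from 20.8, 20.05 and 20.1 to 37.1, 36.6 and 36.8 (0.84 ± 0.06, adjusted p = 7.80e-12). Its libraries were close together within each group. Zfp318, known in B cells for the transcription that yields IgD, rose from 26.95, 26.98 and 30.3 to 45.5, 48.3 and 51.4 (0.77 ± 0.06, adjusted p = 9.42e-11). Zfp395 had 16.4, 16.3 and 15.9 in WT and 27.02, 28.4 and 28.7 in Dnmt1-/- cells (0.77 ± 0.07, adjusted p = 1.94e-10). Zfp346, a protein that binds double-stranded RNA, had 27.2, 30.7 and 29.9 and 48.2, 46.6 and 45.9 (0.67 ± 0.06, adjusted p = 4.54e-10). Zfp961 is a KRAB gene on chromosome 8. Its values were 117, 103 and 121 in WT and 164, 167 and 164 in Dnmt1-/- cells (0.54 ± 0.05, adjusted p = 3.84e-09). The others were Zfp444, Zfp317, Zfp282 and Zfp473, with log2 fold changes between 0.49 and 0.52; Zfp473 is known for its part in the 3′ end processing of histone mRNA. A KRAB motif was found in 4 of these 10 rises and in 5 of the 10 largest falls.

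At least 1 C2H2 motif was found in 180 of the 186 coding members, with a median of 10 and at most 37, in Zfp142. Members were divided by whether their longest coding sequence encodes a KRAB-like motif. The motif was searched by pattern, which can miss KRAB domains, so a member without a match may still encode one. A motif was found in 95 members and not in 91, and the 2 pseudogenes have no coding transcript. The counts that follow stand beside 32.6% lower, 43.0% higher and 6.93% at least 2-fold lower among all genes with a mean WT value of at least 10. Of the 95 with a KRAB motif, 52 were lower, 18 higher and 9 at least 2-fold lower, with a median log2 fold change of -0.22. Of the 91 without, 40 were lower, 22 higher and 5 at least 2-fold lower, with a median of -0.11. KRAB members had a median WT level of 5.70 value units per kb of exon, against 7.07, and shared more sequence with other loci (a median of 2.70% of 50-base exon windows against 0.211%). Among 51 members with no shared 50-base exon window, 21 were lower and 13 higher, with a median of -0.04. Among 88 with up to 5% of windows shared the median was -0.11, among 24 with over 5% to 20% it was -0.21, and among 25 with over 20% it was -0.40, with 18 lower and 1 higher. The 57 KRAB members with at most 5% of windows shared had a median of -0.12, 26 lower and 16 higher, beside -0.11 for the 82 others with at most 5% shared. The 38 KRAB members above 5% had a median of -0.34, 26 lower and 2 higher. The 9 members without the motif above 5% had a median of -0.01, with 4 lower and 3 higher. No test was made of these differences.

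The 8 members at the distal end of chromosome 4 were all lower in Dnmt1-/- cells. They lie between positions 145510759 and 147809788, all carry a KRAB motif, and 7 of them hold the window printed above. Zfp990 had the highest WT level per kilobase of all members. It stood at 346, 284 and 364 in WT and 218, 211 and 189 in Dnmt1-/- cells (log2 fold change -0.68 ± 0.07 (SE), adjusted p = 5.07e-09). Zfp986 had 32.7, 25.9 and 34.8 and 18.3, 21.7 and 19.05 (-0.64 ± 0.09, adjusted p = 4.97e-07). Zfp987 had 127, 118 and 139 and 84.9, 80.8 and 74.98 (-0.67 ± 0.06, adjusted p = 3.02e-10). The 7 shared segments make these 3 counts, and those of the neighbours, uncertain: 94.4% of the Zfp987 exon windows and 92.1% of those of Zfp986 had a copy elsewhere. In Zfp982 the values were 41.3, 37.3 and 39.8 against 21.9, 21.7 and 19.1 (-0.90 ± 0.07, adjusted p = 1.42e-11). Zfp985 showed the widest difference of the 8, from 128, 109 and 127 to 57.3, 57.002 and 50.4 (-1.14 ± 0.06, adjusted p = 4.62e-14), and 19.9% of its windows were shared, the lowest share among them. Zfp979 went from 214, 175 and 214 to 144, 139 and 125, Zfp534 from 213, 177 and 209.7 to 136, 134 and 115, and Zfp984 from 105, 93.3 and 109 to 70.8, 69.3 and 60.5. Their log2 fold changes were -0.56 ± 0.07, adjusted p = 5.58e-08, -0.63 ± 0.07, adjusted p = 8.00e-09 and -0.61 ± 0.06, adjusted p = 4.86e-09 in that order. In each of the 8 genes every Dnmt1-/- library was below every WT library.

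Other genes of the same stretch were mostly lower too. Of 32 tested genes that are not digits-only Zfp genes, with starts between 145213463 and 147985788, 23 were lower and 6 higher, with a median log2 fold change of -0.57. They may include related zinc finger genes under other symbols. Shared windows were not counted for them, so their counts may carry the same doubt. The 1085 other non-Zfp genes tested on chromosome 4 had a median of 0.00, with 377 lower and 398 higher. The remaining 4 members on chromosome 4, Zfp292, Zfp462, Zfp37 and Zfp362, were also lower, at -0.20, -0.55, -0.31 and -0.42, and lie elsewhere on it; the call of Zfp292 was lost without WT replicate 3. With chromosome medians removed, the 8 distal genes had log2 fold changes from -1.13 to -0.55. That setting could hardly move them, because the other genes of chromosome 4 had a median of 0.00. The median of the stretch itself was not removed, so a shift of the whole stretch was not tested.

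**Figure D3:**
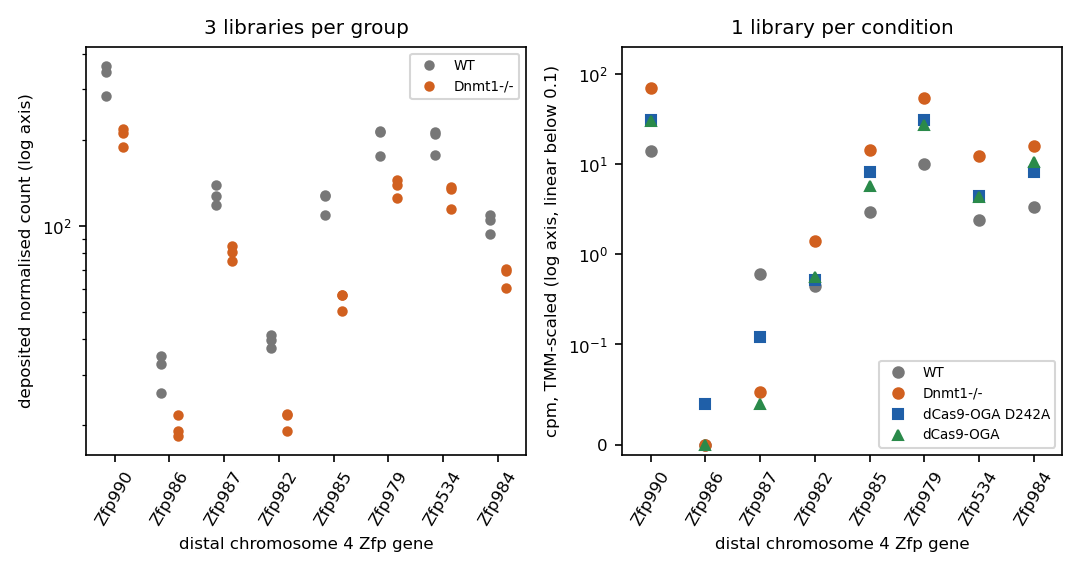
Values of the 8 distal chromosome 4 members in order along the chromosome: on the left the 3 WT and 3 Dnmt1-/- libraries (log axis), on the right the 4 single libraries (cpm, log axis above 0.1 and linear below). On the left every orange point is below the grey points of its gene, and on the right Dnmt1-/- is above WT in 6 of the 8.

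Across the genome, 15 clusters held at least 5 Zfp genes no more than 1 Mb from the next, and 81 members lay in them. Members in clusters had a median log2 fold change of -0.17 (41 lower, 16 higher of 81), and those outside of -0.12 (52 lower, 24 higher of 107). On chromosome 7, between 41633203 and 43618285, 6 of 10 Zfp genes were lower and 2 higher, with a median of -0.46. Its neighbours Zfp977, Zfp976 and Zfp975 were all lower, at -1.14, -0.40 and -0.79, as was Zfp936, while Zfp715 (0.25) and Zfp658, which is no member, were higher and Zfp141, at 0.12, passed the test only without WT replicate 3. On chromosome 13, between 66669928 and 67792512, 7 of 14 Zfp genes were lower and 1 higher (median -0.43), but only 4 of the 14 were members, of which 1 was lower and 3 were not called. In the largest cluster, of 23 Zfp genes on chromosome 17 between 21008903 and 23599487, 10 were lower and 7 higher, with a median of -0.03. Another cluster on chromosome 7, between 24081924 and 25227507, had 6 of 14 higher and 2 lower. These counts stand beside the 35.8% of all genes tested that were called higher and the 35.4% called lower, and differences between clusters were not tested.

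Members with known roles were described by lists of 3 to 7 members, whose counts stand beside the 43.0% called higher and 32.6% called lower among genes with the same minimum WT level. Lists this small are given as a description, and nothing is read from their counts. Of 3 KRAB members tied to retroelements or imprints, 1 rose, 1 fell and 1 did not pass. Zfp568, which represses a placental Igf2 transcript, rose from 297, 309.9 and 332 to 369, 393 and 401 (0.31 ± 0.05, adjusted p = 1.36e-05). Zfp445, which protects imprints, fell from 94.2, 87.3 and 97.1 to 68.2, 78.8 and 75.7 (-0.32 ± 0.06, adjusted p = 2.49e-05). Zfp932, which binds endogenous retroviruses, stood at 27.5, 22.5 and 25.9 and 24.02, 23.1 and 20.1 (-0.17 ± 0.08, adjusted p = 0.0524), with overlapping groups. Zfp708 and Zfp266, also on the list, were not analysed here.

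Of 7 members that act with chromatin corepressors, 3 fell, 1 rose and 3 did not pass. Zfp462, a regulator of heterochromatin in ES cells, fell from 176, 187 and 196 to 122, 125 and 133 (-0.55 ± 0.05, adjusted p = 1.27e-09). Zfp638, which brings the HUSH complex to retroviral DNA, had 178, 158 and 184 in WT and 139, 142 and 141 in Dnmt1-/- cells (-0.30 ± 0.05, adjusted p = 2.24e-05). Zfp532 was lower at -0.25. Zfp410 rose from 29.5, 30.1 and 32.5 to 41.7, 39.97 and 41.3 (0.41 ± 0.06, adjusted p = 1.11e-06). It is known as an activator of Chd4, a NuRD subunit, which stood at 579.5, 656 and 628 in WT and 879, 874 and 919.7 in Dnmt1-/- cells (0.52 ± 0.06, adjusted p = 1.05e-08). In the single libraries Zfp410 had 29.7 cpm in WT and 29.4 in Dnmt1-/-, and Chd4 had 955 and 887. A link between the changes of these genes was not tested. Zfp217, Zfp592 and Zfp687 were at -0.04, 0.12 and 0.09 and did not pass. Zfp644, a further gene of the list, was under the threshold, at 0.426, 0.260 and 0.251 in the WT replicates, and was not tested. In the single libraries it stood higher, at 16.6 cpm in WT, 54.6 in Dnmt1-/-, 44.4 in dCas9-OGA and 42.0 in D242A cells.

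Of 5 members known as pluripotency regulators, 1 fell and 4 did not pass. Zfp296, a partner of Klf4, fell from 80.6, 83.6 and 86.2 to 77.1, 74.4 and 78.3 (-0.12 ± 0.05, adjusted p = 0.0324), and lost its call with chromosome medians removed and without Dnmt1-/- replicate 1, Dnmt1-/- replicate 2 or WT replicate 3. Zfp281, a Nanog-associated factor, had 152, 146 and 165 and 154, 144 and 158, and Zfp207, a spindle assembly factor, had 340.4, 303 and 326 and 353, 343 and 341. Their log2 fold changes were -0.02 ± 0.05, adjusted p = 0.725 and 0.10 ± 0.05, adjusted p = 0.088; the sign of Zfp207 turned with chromosome medians removed (-0.26), and that of Zfp281 turned under 3 settings. Zfp131 and Zfp148 were at -0.11 and -0.01.

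Of 4 developmental regulators among the members, 2 fell (Zfp503, described above, and Zfp704), 1 rose and 1 did not pass. Zfp704 went from 33.04, 35.1 and 37.6 to 25.1, 27.6 and 28.3 (-0.38 ± 0.07, adjusted p = 1.68e-05). Zfp423, a SMAD partner in BMP signalling, rose from 33.8, 35.8 and 38.6 to 47.8, 51.2 and 50.96 (0.47 ± 0.06, adjusted p = 2.15e-07). Zfp335, at 0.11, did not pass. The 4 genes of this list under the threshold, Zfp521, Zfp703, Zfp467 and Zfp536, were lower, at -1.61, -1.41, -0.31 and -2.52; the call of Zfp467 was lost with DESeq2, with chromosome medians removed, with no filter on low values and without Dnmt1-/- replicate 1 or 3 or WT replicate 1 or 2. Over all 8 the median was -0.89.

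Of 7 members that act on RNA or ribosomes, 4 rose, 2 fell and 1 did not pass. Zfp106, an RNA-binding protein needed by motor neurons, rose from 275, 284 and 297 to 389, 399.7 and 409 (0.48 ± 0.05, adjusted p = 4.40e-09). Zfp598, a ubiquitin ligase that acts on collided ribosomes, rose from 123, 134 and 128 to 146, 149 and 149 (0.20 ± 0.05, adjusted p = 6.93e-04). Zfp830, a splicing factor, and Zfp346 also rose, Zfp830 by 0.26; its sign turned with chromosome medians removed (-0.09). Zfp36, which speeds the decay of mRNAs with AU-rich elements, fell from 72.05, 82.4 and 70.3 to 51.3, 48.6 and 53.7 (-0.54 ± 0.06, adjusted p = 2.12e-08). Zfp622, a factor of large ribosomal subunit maturation, was at -0.12 ± 0.05, adjusted p = 0.0347, a call that was lost without Dnmt1-/- replicate 2, Dnmt1-/- replicate 3 or WT replicate 1 and with no filter on low values. Zfp326 was at 0.05.

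Genes listed with the TRIM28 pathway were mostly higher in the Dnmt1-/- replicates. The list also holds genes such as Uhrf1, Atrx and Ogt, and not all of its genes are partners of KRAB zinc finger proteins. Of 16 genes of the TRIM28 pathway listed, none of them a Zfp gene, 11 were higher, 3 lower and 2 did not pass, with a median log2 fold change of 0.27, where 43.0% of genes with a mean WT value of at least 10 were called higher. Trim28, the corepressor that KRAB domains bind, stood at 2190.1, 2335 and 2364 in WT and 2749.6, 2683 and 2817 in Dnmt1-/- cells (0.26 ± 0.06, adjusted p = 9.89e-04). Setdb1, its histone H3 lysine methyltransferase, had 153, 155 and 162 and 212, 204 and 209.5 (0.41 ± 0.05, adjusted p = 3.70e-08). The groups did not overlap for either. In the single libraries these 2 lay the other way, Trim28 at 5136 cpm in WT and 3763 in Dnmt1-/-, and Setdb1 at 233 and 185. Of the 16 genes, 7 had a single ratio above 0 and 9 below, with a median log2 ratio of -0.17; 5 (Atrx, Ogt, Morc3, Smarcad1 and Smarca5) were at least 2-fold higher in single Dnmt1-/- cells and 0 at least 2-fold lower. Lower were Atf7ip, a cofactor of SETDB1 (-0.30), Cbx5, a heterochromatin protein (-0.49), and Hdac1, a histone deacetylase (-0.35). Ogt, the enzyme that adds O-GlcNAc, was higher (0.40).

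Per kilobase of exon, the 5 members with the highest WT level were Zfp990 (94.6 value units per kb), Zfp534 (69.2), Zfp428 (66.1), Zfp979 (48.9) and Zfp207 (48.6). In Dnmt1-/- cells their levels per kb were 58.9, 44.5, 79.7, 33.1 and 51.9, so that Zfp428 led there. Zfp428 had 85.3, 88.3 and 85.7 in WT and 108, 104 and 101 in Dnmt1-/- cells (0.27 ± 0.05, adjusted p = 3.45e-05). Of the 5, 3 are genes of distal chromosome 4, whose counts carry the doubt named above. Over all members the WT mean ranged from 10.04 to 331 with a median of 26.6, and 26 members had at least 100.

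Many members had a far lower level in the single libraries than in the replicates. Per the labels the induced libraries were mapped with another aligner, and the count table was scaled separately here, so that levels across the 2 sets are only set side by side. In the single WT library, 112 of the 188 members (59.6%) were under 0.5 times their mean WT replicate value, where this was so for 26.8% of the 9818 genes with a mean WT value of at least 10. The median log2 ratio of single to replicate level was -2.04 over the members and -0.13 over those genes. It was -3.24 for members with a KRAB motif and -0.10 for members without. Zfp987 stood at 128 in the WT replicates and at 0.605 cpm in the single WT library, and Zfp808 at 54.9 and 0.121 cpm. Between 4 and 7 members were at 0 counts in each single library and 3 (Zfp640, Zfp931 and Zfp972) in all 4; a count of 0 allows up to 3 counts, and this and all intervals below cover counting error only.

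This difference of level ran with the GC content of the transcript. For the 47 members under 40% GC in their longest transcript the median log2 ratio of single to replicate WT level was -4.49, for 58 members of 40 to under 45% it was -2.63, for 32 of 45 to under 50% it was -1.32, and for 51 of 50% and over it was 0.33. Genes that are not Zfp genes went the same way with a smaller range, from -1.15 (545 genes) through -0.76 (1922) and -0.31 (2610) to 0.31 (4542). Of the 47 members under 40% GC, 38 carry a KRAB motif. The members with over 20% of windows shared had a median of -4.75, those with none -0.12. GC, shared windows and KRAB motif run together in these genes, and the part of each was not tested.

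The single Dnmt1-/- and WT libraries did not repeat the direction of the replicates for these genes. Among 143 members with at least 100 counts summed over the 2 libraries, 41 lay 2-fold or more above WT and 5 lay 2-fold or more below it in Dnmt1-/-, where 10.5% and 6.89% of 12593 genes were. With a pseudocount of 5 cpm in place of 0.5, the counts were 22 and 2. There is 1 library per condition, so these counts have no replicate check. The median log2 ratio was 0.25 over the members and -0.07 over all genes compared, and it was 0.96 for 56 members with a KRAB motif and -0.20 for 86 without. It too ran with GC, from a median of 1.70 for members under 40% GC to -0.40 for those of 50% and over; non-Zfp genes went from 0.66 to -0.29. Taken relative to the median of non-Zfp genes of the same GC class, an alternative added after seeing the data, 29 members were 2-fold higher and 5 lower, and the KRAB median was 0.58. Over the 143 members the log2 ratio of the single libraries and the log2 fold change of the replicates had a Pearson r of -6.80e-05 and a Spearman rho of 0.02, where over 11686 genes r was 0.23 and rho 0.19; genes are no independent replicates.

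**Figure D4:**
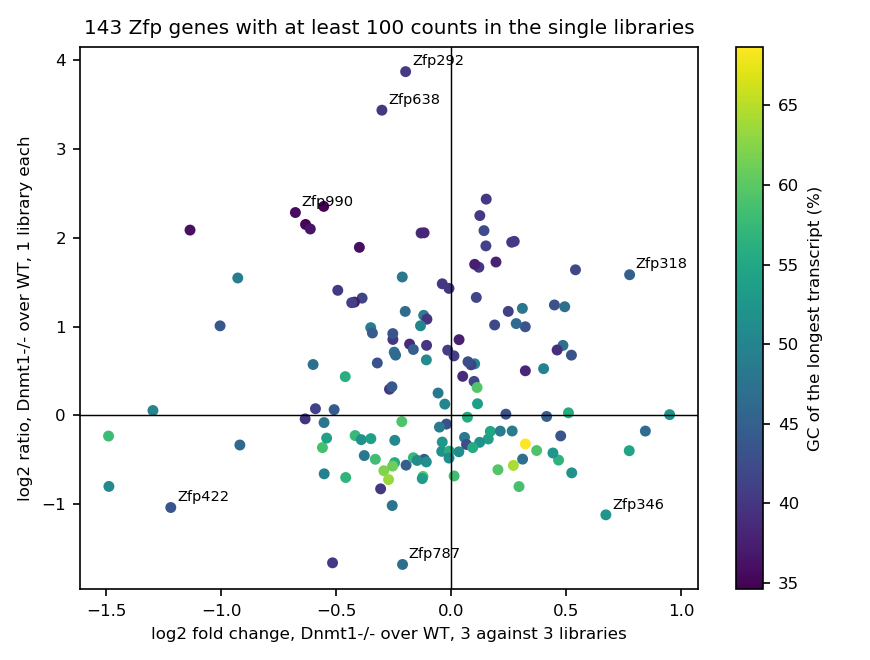
Each point is 1 of 143 Zfp genes, with the log2 fold change of Dnmt1-/- over WT in the replicates (horizontal) and the log2 ratio of the single libraries (vertical), coloured by GC of the longest transcript. Dark points of low GC lie mostly above 0 on the vertical axis, on both sides of 0 on the horizontal axis.

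The members furthest apart in the single libraries were Zfp292 and Zfp638. Zfp292 was counted 149 times in WT and 1802 times in Dnmt1-/-, or 6.01 and 94.8 cpm, a log2 ratio of 3.87 with a 95% interval from 3.74 to 4.23. The dCas9-OGA and D242A libraries held 115 and 97.1 cpm, so that the WT library alone was low. In the replicates the same gene was slightly lower in Dnmt1-/- cells (-0.20). Zfp638 had 10.2 cpm in WT, 115 in Dnmt1-/-, 120.5 in dCas9-OGA and 85.7 in D242A cells, again with WT low. Of the distal chromosome 4 genes, 5 reached 100 summed counts, and all 5 were more than 4-fold higher in the single Dnmt1-/- library. Zfp990 had 13.9 cpm in WT, 69.8 in Dnmt1-/-, 30.2 in dCas9-OGA and 30.7 in D242A cells. At least 2-fold lower in single Dnmt1-/- cells were Zfp787, Zfp560, Zfp346, Zfp422 and Zfp365, at log2 ratios from -1.68 to -1.01. Of these 5, Zfp787, Zfp560, Zfp422 and Zfp365 were also called lower in the replicates, and Zfp346 was called higher. Zfp422, with 15.5 cpm in WT and 7.31 in Dnmt1-/-, was the one that was 2-fold lower in the replicates too.

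The comparison of dCas9-OGA with D242A asks what the removal of O-GlcNAc at IAP elements does beyond binding of the complex there. Each fusion was carried by its own derivative of AinV15, with 1 library. An effect of OGA activity and a difference between the derivatives therefore cannot be told apart. Few members were 2-fold apart: of 153 whose counts in the pair summed to 100 or more, 6 stood at 2-fold or more above D242A in dCas9-OGA and 4 at 2-fold or more below, where 4.88% and 7.22% of 12722 genes were. The median log2 ratio was 0.19 over the members and 0.03 over all genes compared. Of the 153 members 106 were above 0, but the share above 0 over all genes compared was not counted. KRAB members had a median of 0.16 (63 genes) and the others of 0.21 (89 genes). With 1 library per condition this shift has no replicate check.

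The 5 highest ratios were those of Zfp386, Zfp101, Zfp423, Zfp654 and Zfp704, and Zfp369 was the other member at 2-fold. Zfp386, a KRAB gene, was counted 118 times in dCas9-OGA and 45 times in D242A cells, a log2 ratio of 1.19 with a 95% interval from 0.89 to 1.92. For Zfp101, also with KRAB, the counts were 141 and 56, a ratio of 1.17 with a 95% interval from 0.88 to 1.81. Both rest on few counts, and the WT library held only 32 and 26. Zfp423 had 62.5 cpm in dCas9-OGA and 27.8 in D242A cells, a ratio of 1.15 with a 95% interval from 1.04 to 1.30, but 95.3 cpm in WT. It was therefore lower than WT in both induced lines. Zfp654 had 67.5 and 31.3 cpm (1.10 with a 95% interval from 0.99 to 1.23), and Zfp704 had 106 and 49.4 cpm (1.10 with a 95% interval from 1.01 to 1.20).

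The 5 lowest ratios were those of Zfp264, Zfp697, Zfp821, Zfp819 and Zfp710. Zfp264, a transcribed pseudogene, was counted 4 times in dCas9-OGA, 147 times in D242A, 79 times in WT and 197 times in Dnmt1-/- cells. Its ratio was -3.28 with a 95% interval from -7.09 to -3.81; the interval carries no pseudocount, which the ratio does. Of the single libraries, dCas9-OGA was the one in which Zfp264 was nearly absent. Zfp697 had 17 and 84 counts (-1.71 with a 95% interval from -3.15 to -1.54). Zfp821 had 142 and 450 counts (-1.58 with a 95% interval from -1.94 to -1.39), with 250 in WT, between the induced lines. For Zfp819 the ratio was -1.37 with a 95% interval from -1.90 to -1.13. Zfp710 had 197 cpm in dCas9-OGA and 370.2 in D242A cells, a ratio of -0.91 with a 95% interval from -0.96 to -0.86, under 2-fold.

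**Figure D5:**
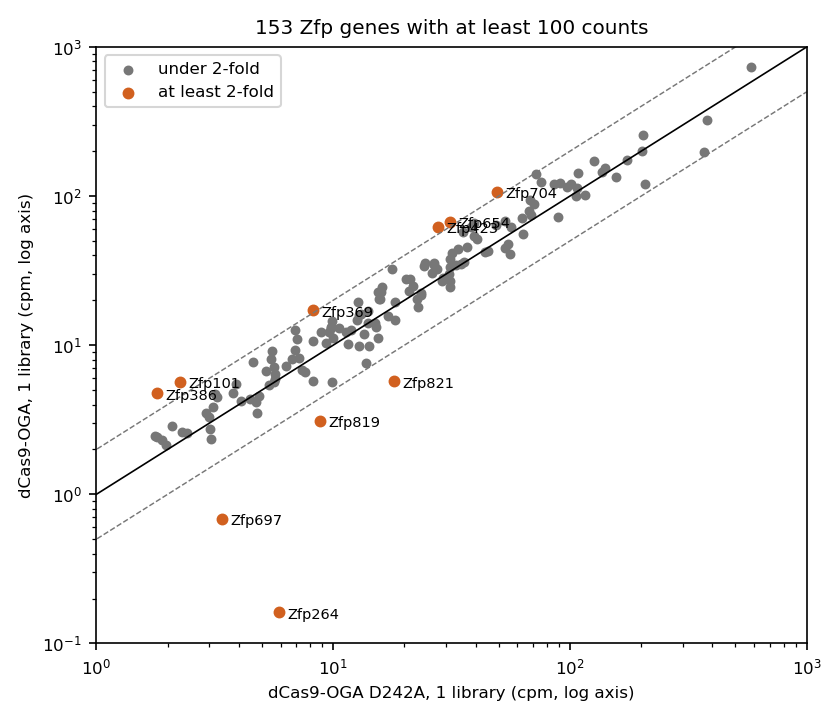
Each point is 1 of 153 Zfp genes, with cpm in the single D242A library (horizontal) and the single dCas9-OGA library (vertical), both on log axes; the solid line marks equal values and the dashed lines 2-fold. All but 10 points lie between the dashed lines, and Zfp264 is the furthest from them.

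Against the single WT library, 37 of 145 members lay 2-fold or more above and 6 lay 2-fold or more below in D242A cells, where 12.5% and 8.28% of 12933 genes were. With a pseudocount of 5 cpm, 10 lay above. In dCas9-OGA cells, 45 were higher and 4 lower, with 14% and 9.78% of 12746 genes. These comparisons share the WT library with that of Dnmt1-/-, so their values are only set side by side. The KRAB median was 0.88 in D242A and 0.84 in dCas9-OGA cells, and that of members without the motif 0.01 and 0.07. Relative to non-Zfp genes of the same GC class, 22 members were 2-fold higher and 9 lower in D242A cells, and the KRAB median was 0.48. Zfp428 was the furthest below WT, with 195 cpm in WT, 34.8 in D242A and 35.2 in dCas9-OGA cells. Zfp296 had 158, 53.4 and 68.3 cpm in the same order.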

How the data were processed

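RNA sequencing data of mouse ES cells were analysed: 3 WT and 3 Dnmt1-/- replicate libraries, and 1 library each of WT, Dnmt1-/-, dCas9-OGA and dCas9-OGA D242A. Of the 13 samples of the series, 5 ChIP and input libraries, as well as counts over repeats, were not used here. Per the labels and the study's methods, reads were mapped to mm10 with HISAT2 2.1.0 (replicates) or, per the labels, TopHat2 2.0.11 (induced libraries), and counted with featureCounts 1.5.0 on Ensembl 87 genes. For the replicates, the authors deposited a normalised signal per gene, the read count divided by a library factor. All values were whole multiples of 1 step per library (tolerance 0.01), so whole reads were recovered. The deposited column names of these files do not match their columns, and values were read by position. For the single libraries, the authors deposited raw counts. The sources name different kits, so whether counting used strand is uncertain, and reads of antisense partners may be included.

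The replicates were compared with limma 3.58.1 (trend) in R 4.3.3 on log2(value + 0.5), with Benjamini-Hochberg adjustment over 17297 genes that passed the filterByExpr function of edgeR 4.0.16; "called" means adjusted p at most 0.05, errors are SE, and two-sided p-values are given. The quasi-likelihood test of edgeR and DESeq2 1.42.0 were run on the recovered reads as alternatives, beside other pseudocounts, filters, scalings, left-out replicates and a replicate block. Single libraries were scaled with TMM to cpm, counts scaled to a common library size; ratios are of cpm + 0.5 for genes with at least 100 summed counts, without a test, with exact Clopper-Pearson 95% intervals computed on the counts. The scripts were tested on simulated data. Same-numbered replicates did not deviate together, so no pairing was used.

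Genes were placed with GENCODE vM21 (GRCm38), promoters are from RefSeq, and protein sequences were not used here. C2H2 and KRAB motifs were searched by pattern in translated coding sequence, and a window is shared if its 50 bases occur elsewhere on GRCm38. Members and lists were chosen with earlier results of these data known. Genes named are the 10 largest rises and falls with groups that did not overlap, the role lists, the 5 extreme dCas9-OGA ratios on each side, the neighbours of the threshold and the 5 highest WT levels per kb; others were named after their values were seen.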

Additional observations from a re-analysis of the deposited data

Results flagged for a closer look

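Of the 61 members called lower in the Dnmt1-/- replicates and compared in the single libraries, 16 were at least 2-fold higher in the single Dnmt1-/- library than in the single WT library. This stands beside 41 of all 143 members compared and 11 of the 37 members called higher. Of the 61, 4 were at least 2-fold lower in the single library, and 31 had a ratio above and 30 a ratio below 0. Relative to non-Zfp genes of the same GC class, a setting added after seeing the data, 11 of the 16 stayed at least 2-fold higher and 5 (Zfp74, Zfp655, Zfp654, Zfp260 and Zfp68) lay under 2-fold, at 0.59 to 0.99 on the log2 scale. The difference between the sets was not tested, because each single condition has 1 library. The 16 include 5 distal chromosome 4 genes (Zfp985, Zfp984, Zfp534, Zfp990 and Zfp979), with single ratios between 2.09 and 2.35 on the log2 scale, as well as Zfp292 (3.87) and Zfp638 (3.44). Of the 37 members called higher and compared, 1 was at least 2-fold lower in the single library: Zfp346, at 0.67 in the replicates and -1.12 in the single libraries. Relative to its GC class it was at -0.89, so that 0 remained. This difference was likewise not tested.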

How the results depend on the processing

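Among the replicates, the number of members called (133), higher (40) and lower (93) and at least 2-fold apart (14) stayed within 1.5 times of these values under every alternative test, scaling, filter and pseudocount run and with 1 replicate left out. With other rules for membership, the numbers called and lower stayed within 1.5 times as well. With the threshold on all 6 libraries 9 were at least 2-fold apart, and with it on the Dnmt1-/- libraries 8. A minimum WT value of 20 left 9 at least 2-fold apart, and 62 or 25 were higher with a minimum of 5 or 20. For these counts the minima of 5 and 20 were added after seeing the data, as were the 2-fold counts under all of these rules. Leaving out 1 replicate gave 126 to 137 called, 38 to 43 higher, 85 to 98 lower and 13 to 15 at least 2-fold apart. With the replicate number as a block, although the numbers did not pair the samples (correlations of 0.0740, -0.0164 and 0.0652), 139 were called, 44 higher and 95 lower. For 101 genes named in the text, 1449 of 1514 alternative values kept direction and call, 32 lost the call, 21 gained it and 12 changed sign. These were Zfp148 (between -0.0327 and 0.0322 with 1 replicate left out), Zfp605 (between -0.0415 and 0.0170 likewise), Zfp640 (between -0.0616 and 0.0896 likewise), Zfp281 (between -0.0626 and 0.0274 likewise and 0.0335 with chromosome medians removed), and, also with chromosome medians removed, Zfp207 (-0.259) and Zfp830 (-0.0933). A minimum WT value of 20 left 118 members. With a pseudocount of 5 cpm, 4 members were 2-fold apart between dCas9-OGA and D242A (2 higher, 2 lower), 24 between the single Dnmt1-/- and WT libraries (22 higher, 2 lower) and 14 between D242A and WT (10 higher). Total counts as scaling, or ratios relative to the chromosome median, left 3 lower in the single Dnmt1-/- library. Relative to genes of the same GC class, a setting added after seeing the data, 22 were higher in D242A than in WT. The cause of these differences was not tested. Single libraries limit every ratio to counting error.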
